A study of Homo sapiens with 9 samples.

Results

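Cells that lose oxygen exchange some of the subunits of their respiratory chain for paralogs, and 7 genes of that exchange are described here in Hep3B cells, an established human hepatocellular carcinoma (HCC) line. The members were taken by gene symbol from the deposited table, which holds 60683 genes: COX4I1 and COX4I2, NDUFA4 and NDUFA4L2, LONP1, HIGD1A and ISCU. All 7 were found and all 7 passed the filter on low counts, COX4I2 only through its counts in vehicle at 1% O2. RNA-seq was performed on 9 libraries in 3 groups of 3 biological replicates, all exposed for 24 hours: vehicle (DMSO) at 20% O2, vehicle at 1% O2, and the HIF inhibitor 32-134D at 1% O2. There was no group with 32-134D at 20% O2, so the comparisons with the compound apply to hypoxic cells.

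Complex IV (cytochrome c oxidase) passes electrons from cytochrome c to oxygen. Its subunit 4 exists as a constitutive isoform, COX4I1, and a second isoform, COX4I2, which is best known from lung and from hypoxic cells. In hypoxia, HIF-1 is known to activate transcription of COX4I2 and of LONP1, a protease of the mitochondrial matrix that degrades COX4I1 protein. NDUFA4 was first assigned to complex I and is now counted as a subunit of complex IV, and NDUFA4L2 is its HIF-induced paralog, known for lowering oxygen consumption. HIGD1A is a small inner-membrane protein that binds complex IV. ISCU is the scaffold on which iron-sulfur clusters, the electron carriers of complexes I, II and III, are assembled, and it is a known target of the hypoxia-induced microRNA miR-210.

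The coding sequences of both pairs are shown because the comparison within each pair depends on reads that can be assigned to one paralog. They are from the principal transcripts of GENCODE 29 (GRCh38), 5′ to 3′, whole for the NDUFA4 pair and for the COX4 pair the last 180 bases (331 to 510 and 337 to 516), with the longest stretch that both paralogs share in capitals.
NDUFA4: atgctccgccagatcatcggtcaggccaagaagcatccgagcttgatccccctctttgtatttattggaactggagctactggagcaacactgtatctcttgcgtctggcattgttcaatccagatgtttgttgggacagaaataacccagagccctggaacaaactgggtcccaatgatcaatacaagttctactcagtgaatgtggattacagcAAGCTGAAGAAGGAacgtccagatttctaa
NDUFA4L2: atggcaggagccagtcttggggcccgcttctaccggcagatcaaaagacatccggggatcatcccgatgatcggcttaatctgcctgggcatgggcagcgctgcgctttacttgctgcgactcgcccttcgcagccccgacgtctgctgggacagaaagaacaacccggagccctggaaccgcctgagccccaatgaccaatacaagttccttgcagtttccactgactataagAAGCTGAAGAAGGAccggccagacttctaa
COX4I1: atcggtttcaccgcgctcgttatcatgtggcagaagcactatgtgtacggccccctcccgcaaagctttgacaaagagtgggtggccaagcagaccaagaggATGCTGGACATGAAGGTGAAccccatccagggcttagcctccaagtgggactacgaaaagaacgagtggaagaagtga
COX4I2: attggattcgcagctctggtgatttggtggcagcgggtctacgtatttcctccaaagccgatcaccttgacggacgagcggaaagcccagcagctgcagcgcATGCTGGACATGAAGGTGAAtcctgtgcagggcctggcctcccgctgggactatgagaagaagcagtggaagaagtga
NDUFA4 has 246 coding bases (81 codons before the stop codon) and NDUFA4L2 has 264 (87 codons). Of 241 aligned bases, 166 (68.9%) were identical, and the longest shared run was 14 bases. COX4I1 and COX4I2 have 510 and 516 coding bases (169 and 171 codons), with 339 of 485 aligned bases identical (69.9%) and a longest shared run of 20 bases. The longest runs were no longer when the whole principal transcripts were compared.

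The members lie on 7 loci of GRCh38, and each is protein coding. COX4I1 (ENSG00000131143) is at chr16:85798633-85807044 on the plus strand and COX4I2 (ENSG00000131055) is at chr20:31637888-31645006 on the plus strand. NDUFA4 (ENSG00000189043) is at chr7:10931951-10940256 and NDUFA4L2 (ENSG00000185633) is at chr12:57234903-57240715, both on the minus strand. LONP1 (ENSG00000196365) is at chr19:5691834-5720572 and HIGD1A (ENSG00000181061) is at chr3:42784298-42804531, both on the minus strand. ISCU (ENSG00000136003) is at chr12:108562582-108569384 on the plus strand. NDUFA4L2 shares 33 exon bases with SHMT2 on the opposite strand, LONP1 shares 43 with RPL36 and COX4I1 shares 4 with EMC8. HIGD1A shares 488 and 337 exon bases with AC099329.1 and AC006059.2 on its own strand, which had 0 and 2 counts over the 9 libraries. The strand setting of the counting is not given in the sources used here.

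Levels are given as counts per 1000000 of the TMM-scaled library size (CPM). Library totals ranged from 6013980 counts (vehicle at 20% O2, replicate 2) to 40549699. The mitochondrial genome gave 3.8% to 4.0% of the counts in normoxic vehicle, 4.3% to 4.6% in hypoxic vehicle and 4.0% to 4.4% with 32-134D. Replicates of a group differed by more than sampling noise in every pair, so none was counted as a duplicate. All 8 hepatocyte markers checked had counts in every group, with ALB, the gene for albumin, at group means of 8116 to 9536 CPM. The markers did not all hold steady: APOB fell by 3.47 on the log2 scale at 1% O2 and rose by 3.12 with 32-134D, and AFP was called lower in hypoxia. TTR, FGB and TF were called lower with 32-134D, where replicate 3 lay far below replicates 1 and 2. It was at 9.79 CPM against 37.9 and 34.5 for TTR, 6.86 against 33.5 and 33.1 for FGB, and 584 against 1545 and 1505 for TF. DESeq2 gave FDRs of 0.111 for TTR, 0.151 for FGB and 0.0459 for TF, and these calls were not tested without replicate 3. The 6 markers of immune, endothelial and fibroblast cells summed to 3.80 to 5.22 CPM in the libraries with vehicle at 1% O2 and 6.78 to 12.1 CPM in the others, and 3 of them, PTPRC, CDH5 and DCN, had 7, 1 and 4 counts over all libraries. Of the rest, COL1A1 had 1245 counts, CD68 139 and PECAM1 131. COL1A1 and PECAM1 were called lower in hypoxia (log2 fold changes -0.85 and -1.88) and higher with 32-134D (0.94 and 1.93). The 10 reference HIF target genes checked, CA9 and VEGFA among them, were all called higher at 1% O2 and all lower with 32-134D. Of all genes tested, 19.5% and 13.7% were so called. With 32-134D, 9 of the 10 were still called higher than in normoxic vehicle (median log2 fold change 1.05), beside 3.0% of all genes. Replicate 3 of 32-134D stood apart from the other libraries of its group (ALB at 5948 CPM against 9338 and 9061), and the counts of called members were also taken without it and the smallest library together.

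A gene was called when its edgeR quasi-likelihood test had a Benjamini-Hochberg false discovery rate (FDR) below 0.05 over the 22672 genes tested and a fold change above 1.5. Errors of log2 fold changes are standard errors, and those of group means are SDs, with n = 3.

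The first comparison, vehicle at 1% against vehicle at 20% O2, asks how hypoxia altered these genes. Transcripts of both hypoxic paralogs rose, as did those of the scaffold gene ISCU, and no member fell. COX4I2, with 45 of its 47 counts in hypoxic vehicle, was tested only because it was high there, so its call adds no support. Of the other 6 members 2 were called higher, beside 19.5% of all genes tested (39.7% in either direction). A further 3 members (COX4I1, NDUFA4 and LONP1) passed the FDR but not the fold threshold, and HIGD1A passed neither. At any fold change, all of the 6 but HIGD1A were higher past the FDR, as were 27.9% of all genes (53.5% in either direction). All 7 estimates were positive, so the count of 0 members called lower was also 0 at an unadjusted p below 0.05, and it was 0 with DESeq2.

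**Figure D1:**
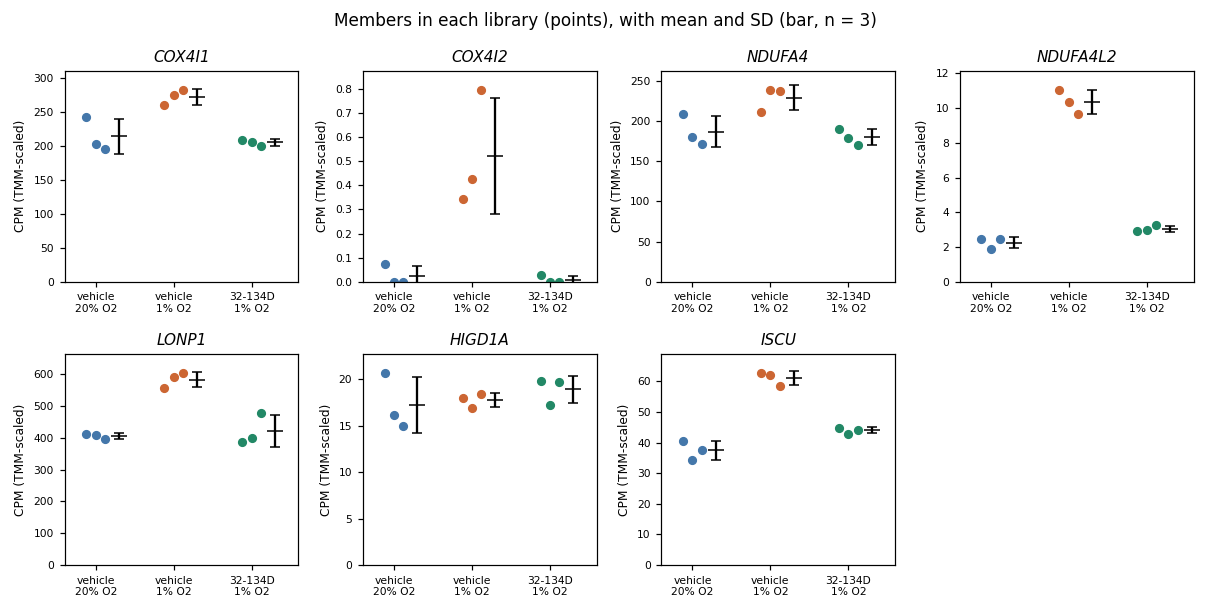
CPM (TMM-scaled, linear axes from 0) of the 7 members in each library, with 1 point per library and a bar for the mean and SD of the 3 libraries of a group. The libraries with vehicle at 1% O2 lie above all others for every member except HIGD1A, whose groups overlap, and COX4I2 is near 0 outside that group.

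NDUFA4L2 was at 2.44, 1.88 and 2.46 CPM in the 3 libraries with vehicle at 20% O2 (34, 12 and 81 counts). It was at 11.1, 10.3 and 9.68 CPM with vehicle at 1% O2 (417, 219 and 280 counts), so every hypoxic library was above every normoxic one. The mean rose from 2.26 ± 0.33 to 10.4 ± 0.69 CPM, a 4.41-fold change (log2 fold change 2.14 ± 0.16, edgeR FDR = 2.65e-08). SHMT2, the mitochondrial serine hydroxymethyltransferase that overlaps it on the opposite strand, had 108236 counts over all libraries against 1305 for NDUFA4L2. SHMT2 also rose at 1% O2 (log2 fold change 1.27 ± 0.13, FDR = 1.36e-06), and its part in the counts of NDUFA4L2 was not tested. In bulk RNA, fewer expressing cells and less RNA per cell cannot be told apart.

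NDUFA4 was at 208.2, 180.0 and 171.7 CPM in normoxic vehicle and 211.4, 238.6 and 237.2 CPM in hypoxic vehicle. The groups did not overlap, as held for 60.5% of all genes tested, although the lowest hypoxic library was close to the highest normoxic one. The change was 1.23-fold (log2 fold change 0.30 ± 0.084, FDR = 0.00815) and under the fold threshold. It depended on the scaling: with total library size, which put the median of all genes at -0.21, it was 0.080 (FDR = 0.449).

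COX4I2 was close to the limit of detection. The libraries with vehicle at 20% O2 gave 1, 0 and 0 counts and those with vehicle at 1% O2 gave 13, 9 and 23, a mean of 0.52 ± 0.24 CPM. Set against library sizes, the 45 hypoxic counts and the 1 normoxic count gave a ratio of 27.2, with a 95% interval from 4.65 to 1100 for counting error only. The fitted log2 fold change was 4.44 ± 0.96 (FDR = 0.00113, which adds no support, as COX4I2 was tested only through this group). It depends on the prior count, and it was 3.28 without replicate 3 and 6.78 without replicate 1 of normoxic vehicle. With only 47 counts in all 9 libraries, COX4I2 was dropped by filters that ask for more counts, and then it was not tested.

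COX4I1, in contrast, was among the well-measured genes, at 242.7, 202.2 and 195.7 CPM with vehicle at 20% O2 and 259.1, 273.9 and 281.9 CPM with vehicle at 1% O2. Every hypoxic library was above every normoxic one, and the constitutive isoform was thus not lower in hypoxia at the transcript level. The change was 1.27-fold (log2 fold change 0.35 ± 0.082, FDR = 0.00225), under the fold threshold. With total library size it was 0.13 (FDR = 0.201).

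The plot of fold changes sets these estimates beside those for the other comparisons.

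**Figure D2:**
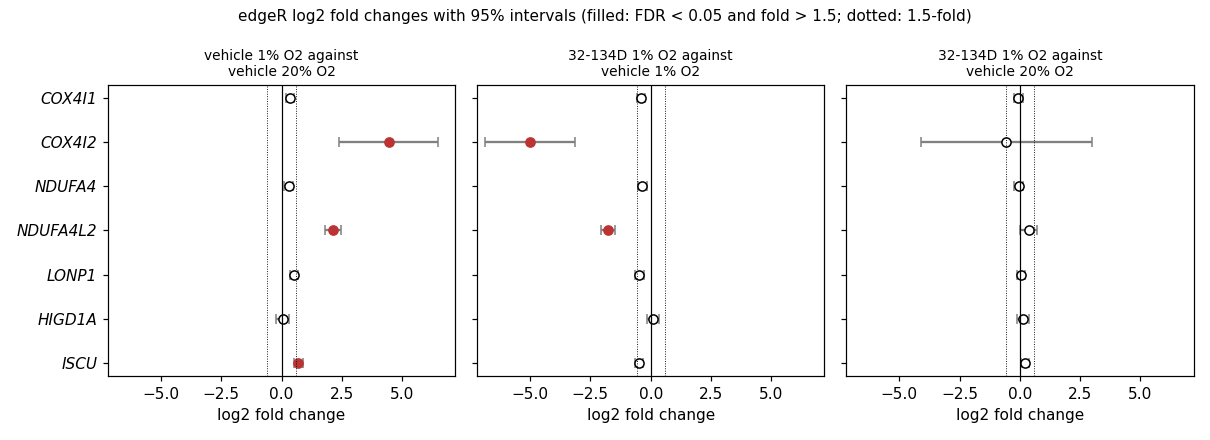
Log2 fold changes (horizontal axis) of the 7 members in 3 comparisons, as points with 95% intervals from the edgeR fit, filled where FDR was below 0.05 and the fold change above 1.5. Dotted lines mark a 1.5-fold change, and COX4I2 has the widest interval, from 2.38 to 6.50 in hypoxia.

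Because a ratio within a library does not depend on the scaling between libraries, the paralogs of each pair were set against each other per kb of exon. Length was the union of annotated exons: 3556 bases for NDUFA4, 2806 for NDUFA4L2, 4792 for COX4I1 and 693 for COX4I2. The numbers per 1000 depend on that choice of length. Differences between groups do not depend on it, because the same lengths enter every group and cancel. NDUFA4L2 amounted to 15.1, 13.8 and 18.3 transcripts per 1000 of NDUFA4 in the normoxic vehicle libraries and to 66.3, 55.0 and 51.8 in the hypoxic ones. The groups did not overlap, and the mean log2 ratio was higher by 1.88 at 1% O2 (exact permutation p = 0.10, two-sided, the smallest that 3 against 3 libraries allow). NDUFA4 was still the more abundant transcript, with means of 64.4 ± 4.3 CPM per kb for NDUFA4 and 3.69 ± 0.24 for NDUFA4L2 in hypoxia.

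For the other pair, the pooled counts, by the same lengths, gave 0.62 COX4I2 transcripts per 1000 of COX4I1 in normoxic vehicle and 13.1 in hypoxic vehicle. Because COX4I2 was tested only through its counts in hypoxic vehicle, the test of this ratio adds no support. The mean log2 ratio, with 0.5 added to each count, was higher by 2.98 at 1% O2 (exact permutation p = 0.10, the smallest possible). That size depends on the added count, since it was 1.46 with 2 in place of 0.5, and on depth and 1 library, since it was 2.06 with counts thinned to the smallest library and 2.17 without replicate 3 of normoxic vehicle. COX4I1 had 56.7 ± 2.4 CPM per kb in hypoxia, against 0.75 ± 0.35 for COX4I2.

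**Figure D3:**
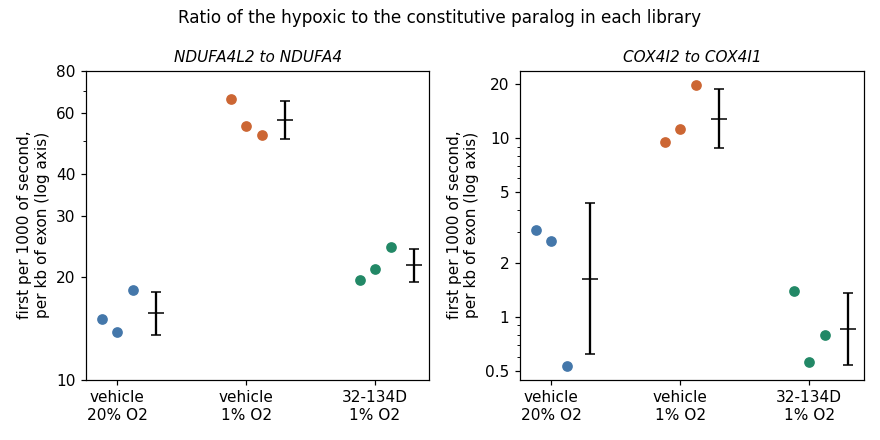
Ratio of the hypoxic paralog to the constitutive one in each library, as transcripts per 1000 per kb of exon on log axes, with 0.5 added to each count so that libraries without a COX4I2 count can be drawn. Bars give the mean and SD of the log2 ratios (n = 3), and the hypoxic vehicle libraries lie above all the others in both pairs.

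LONP1, the protease gene, was at 412.1, 410.1 and 395.4 CPM with vehicle at 20% O2 and 556.3, 590.1 and 603.2 CPM with vehicle at 1% O2. Every hypoxic library was higher, by 1.44-fold in the mean (log2 fold change 0.52 ± 0.082, FDR = 6.60e-05), just under the fold threshold. Unlike the changes of COX4I1 and NDUFA4, this one kept an FDR below the threshold with total library size (0.31, FDR = 0.00471). RPL36, the ribosomal protein gene that overlaps it, changed by a log2 value of 0.62, and its part was not tested.

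ISCU had 40.4, 34.2 and 37.7 CPM in normoxic vehicle and 62.6, 62.1 and 58.6 CPM in hypoxic vehicle. It rose 1.62-fold (log2 fold change 0.70 ± 0.080, FDR = 2.82e-06), with all hypoxic libraries above all normoxic ones. The call rests on the scaling, because the log2 fold change was 0.51 with the upper quartile and 0.49 with total library size, both under the fold threshold, with FDRs of 6.28e-05 and 0.00014.

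HIGD1A did not pass the test. It was at 20.7, 16.2 and 14.96 CPM in normoxic vehicle and at 17.9, 16.9 and 18.4 CPM in hypoxic vehicle, so the groups overlapped. The log2 fold change was 0.045 ± 0.12, with a 95% interval from -0.22 to 0.31 (FDR = 0.785), and its sign was negative under total library size (-0.17) and upper quartile scaling (-0.15).

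The second comparison, 32-134D against vehicle at 1% O2, asks how the HIF inhibitor altered the hypoxic levels. Both hypoxic paralogs fell. COX4I2 was again tested only through its counts in hypoxic vehicle, and of the other 6 members 1, NDUFA4L2, was called lower, beside 13.7% of all genes tested (29.9% in either direction). Another 4 members (COX4I1, NDUFA4, LONP1 and ISCU) were lower past the FDR but not the fold threshold. At any fold change, all of the 6 but HIGD1A were lower past the FDR, as were 25.5% of all genes (47.5% in either direction). None was called higher, and the 1 positive estimate, of HIGD1A, had an unadjusted p of 0.448, with 0 called higher by DESeq2 as well. The comparison shares the hypoxic vehicle libraries with the first one.

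With 32-134D, NDUFA4L2 was at 2.92, 2.96 and 3.25 CPM (103, 88 and 71 counts), below every hypoxic vehicle library, and 56.1% of all genes had no overlap in this comparison. The level fell to 0.29 of that in hypoxic vehicle (log2 fold change -1.77 ± 0.14, FDR = 1.45e-07). COX4I2 had 1, 0 and 0 counts with 32-134D, against 13, 9 and 23 with vehicle. The pooled ratio was 0.022, with a 95% interval from 0.00056 to 0.13 for counting error. The fitted log2 fold change of COX4I2 was -5.00 ± 0.87 (FDR = 0.000237, which adds no support, as COX4I2 was tested only through hypoxic vehicle). It was -6.63 without replicate 1 of 32-134D and -4.50 without replicate 3 of hypoxic vehicle.

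Relative to NDUFA4, NDUFA4L2 stood at 19.6, 21.1 and 24.4 transcripts per 1000, and the mean log2 ratio differed from that in hypoxic vehicle by -1.41 with no overlap (exact permutation p = 0.10, the smallest possible). For COX4I2, tested only through its counts in hypoxic vehicle, the test again adds no support. COX4I2 stood at 0.39 per 1000 of COX4I1 in the pooled counts, and its mean log2 ratio differed by -3.91 (exact permutation p = 0.10). That difference was -2.40 with a prior count of 2, so its size is uncertain.

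The constitutive partners were lower by less than the fold threshold. COX4I1 was at 208.8, 206.1 and 199.5 CPM with 32-134D, all below the hypoxic vehicle libraries (log2 fold change -0.41 ± 0.082, FDR = 0.000755). NDUFA4 was at 189.9, 178.8 and 170.2 CPM, also without overlap (-0.35 ± 0.084, FDR = 0.00293). With total library size, which put the median of all genes at 0.17, the log2 fold change of COX4I1 was -0.22 (FDR = 0.0401) and that of NDUFA4 was -0.16 (FDR = 0.126).

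LONP1 was at 386.1, 400.8 and 479.1 CPM with 32-134D, the highest value being that of replicate 3, and all 3 were below hypoxic vehicle (log2 fold change -0.47 ± 0.082, FDR = 0.000243). ISCU was at 44.8, 42.9 and 44.2 CPM, also below every hypoxic vehicle library (-0.47 ± 0.077, FDR = 0.000126), and neither passed the fold threshold. HIGD1A was at 19.8, 17.3 and 19.7 CPM, which overlapped the vehicle values (log2 fold change 0.091 ± 0.12, FDR = 0.558, 95% interval from -0.16 to 0.34).

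The third comparison sets 32-134D at 1% O2 against vehicle at 20% O2, and shares libraries with both others. No member was called in either direction by edgeR, beside 3.52% of all genes tested, and DESeq2 called 0 as well. At an unadjusted edgeR p below 0.05 there were 2 members, ISCU and NDUFA4L2. NDUFA4L2 was 1.29-fold higher than in normoxia (log2 fold change 0.37 ± 0.17, 95% interval from 0.015 to 0.72, FDR = 0.184). Its libraries did not overlap with the normoxic ones, which was so for 29.8% of all genes, and the ratio to NDUFA4 was higher by 0.47 on the log2 scale without overlap (exact permutation p = 0.10). Without the smallest library and replicate 3 of 32-134D the log2 fold change was 0.26. The overlapping SHMT2 was called higher here (0.72 ± 0.13, FDR = 0.00314), at 380.7, 366.9 and 583.0 CPM with 32-134D, and its part was not tested.

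ISCU was 1.17-fold higher with 32-134D than in normoxic vehicle (log2 fold change 0.22 ± 0.080, edgeR FDR = 0.0944), with no overlap of the groups. DESeq2 gave an FDR of 0.0404 at a log2 fold change of 0.23, under the fold threshold. The other members gave estimates of -0.061 for COX4I1 (95% interval from -0.24 to 0.12), -0.055 for NDUFA4 (-0.24 to 0.13), 0.056 for LONP1 (-0.12 to 0.23) and 0.14 for HIGD1A (-0.13 to 0.40). With 1 count in each group, COX4I2 could not be compared closely, and the interval of its ratio ran from 0.0078 to 48.1.

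In order of level per kb of exon in hypoxic vehicle, the members ran from LONP1 (114.7 ± 4.8 CPM per kb) through NDUFA4 (64.4 ± 4.3), COX4I1 (56.7 ± 2.4), ISCU (13.8 ± 0.49), HIGD1A (10.6 ± 0.44) and NDUFA4L2 (3.69 ± 0.24) to COX4I2 (0.75 ± 0.35). In normoxic vehicle HIGD1A (10.3 ± 1.8) stood before ISCU (8.44 ± 0.70), a difference of about 1 SD, and NDUFA4 and COX4I1 differed there by little more than their spread, at 52.5 ± 5.4 and 44.6 ± 5.3. The order with 32-134D was LONP1, NDUFA4, COX4I1, HIGD1A, ISCU, NDUFA4L2 and COX4I2, the same as in normoxic vehicle. These levels use the union of annotated exons as length, and the order with other lengths was not tested.

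The microRNA that targets ISCU and a site for it are shown because both are part of how ISCU is known to be held down in hypoxia. The mature sequence is from RefSeq (GRCh38.p14, chr11:568112-568133, minus strand), with the seed, bases 2 to 8, in capitals, and the complement of the seed is in capitals in the stretch of the 3′ untranslated region (UTR) of ISCU in GENCODE 29.
miR-210-3p: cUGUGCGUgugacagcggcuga
ISCU: agctatgagatACGCACAatacttgctgtt
The 7-base match stood at bases 111 to 117 of the 468-base UTR of the principal ISCU transcript, and 4 of 6 coding transcripts held it. It was found in 510 of 18890 UTRs searched (2.70%) and in none of the UTRs of the other 6 members. A match is a description of letters and no evidence of binding. MIR210HG, the host transcript of the microRNA, was at 4.09, 3.46 and 3.80 CPM in normoxic vehicle and 6.81, 7.59 and 8.71 CPM in hypoxic vehicle. It rose at 1% O2 (log2 fold change 1.01 ± 0.20, FDR = 0.000542) and fell with 32-134D to 3.49, 3.27 and 1.97 CPM (-1.38 ± 0.19, FDR = 2.85e-05). The log2 fold changes of the host transcript and of ISCU had the same sign in both comparisons, and mature miR-210 was not analysed here.

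HIF binds DNA at hypoxia-response elements, whose core is ACGTG or GCGTG. RefSeq promoters (GRCh38.p14) were matched for 4 of the 7 members, HIGD1A, ISCU, COX4I1 and LONP1. The part upstream of every annotated exon is shown for ISCU, which rose at 1% O2, and for HIGD1A, which did not pass the test, with matches to either core on either strand in capitals.
ISCU, chr12:108562346-108562581, plus strand: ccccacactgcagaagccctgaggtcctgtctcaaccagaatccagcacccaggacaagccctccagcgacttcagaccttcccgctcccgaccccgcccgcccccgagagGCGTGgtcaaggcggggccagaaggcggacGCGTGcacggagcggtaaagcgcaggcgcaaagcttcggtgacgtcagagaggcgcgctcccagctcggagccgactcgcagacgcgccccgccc
HIGD1A, chr3:42804532-42804740, minus strand: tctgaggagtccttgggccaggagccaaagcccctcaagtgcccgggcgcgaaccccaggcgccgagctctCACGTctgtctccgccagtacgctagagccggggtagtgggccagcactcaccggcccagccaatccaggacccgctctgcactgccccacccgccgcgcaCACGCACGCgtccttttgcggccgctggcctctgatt
In the 250 bases before the start, ISCU held 2 matches, both GCGTG. HIGD1A held 3, all on the strand opposite to the gene, of which 1 was ACGTG and 2 were overlapping GCGTG. LONP1 held 6 and 1 at its 2 listed starts, and COX4I1 held 0. Of the 6, 4 were ACGTG, from CACGTG stretches that read the same on both strands and were counted on each. Either core was present in 43.2% of all 35116 promoters of that length, and ACGTG in 18.5%.

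The nuclear complex IV subunits other than subunit 4 changed within a narrow range, with log2 fold changes from 0.20 to 0.69 in hypoxia, beside 0.35 for COX4I1. Of 14 listed, 9 were tested, and the tissue isoforms COX6A2, COX6B2, COX7A1, COX7B2 and COX8C had 0 to 9 counts over all libraries. At 1% O2, 2 of the 9 were called higher and 0 lower, all 9 estimates were positive, and their median was 0.42, beside 0.0010 for all genes, of which 19.5% were called higher. COX6A1, a small subunit of the complex, rose by a log2 value of 0.69 ± 0.094 (FDR = 1.76e-05) and fell by 0.68 on the log2 scale with 32-134D (FDR = 2.71e-05). With 32-134D, 2 of the 9 were called lower and 0 higher, beside 13.7% of all genes called lower. Both calls of COX6A1 were lost with the upper quartile (0.50 and -0.56) and with total library size (0.47 and -0.49), that in hypoxia also with a minimum of 10 counts in each library (0.58) and after thinning (0.57), and that with 32-134D without replicate 3 of hypoxic vehicle (-0.58).

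The 3 subunits of the catalytic core of complex IV, which are encoded in mitochondrial DNA, had estimates in the other direction. This was not so for the mitochondrial genome as a whole, whose share of counts was larger in hypoxic than in normoxic vehicle. MT-CO3 (subunit 3) was at 3348, 3109 and 3003 CPM in normoxic vehicle and at 945.8, 859.6 and 917.6 CPM in hypoxic vehicle. It fell by 1.80 on the log2 scale (SE 0.079, FDR = 1.91e-10) and rose with 32-134D to 2699, 2527 and 2326 CPM (1.47 ± 0.078, FDR = 3.98e-09). MT-CO1, which holds the heme and copper site that reduces oxygen, had a log2 fold change of -0.52 ± 0.067 in hypoxia (FDR = 1.11e-05) and 0.54 with 32-134D (FDR = 1.12e-05), under the fold threshold. With total library size these were -0.73 and 0.73, and both were called. Both changes of MT-CO1 were also called with the upper quartile (-0.71 and 0.66), with stricter filters on counts and after thinning. With DESeq2 the change with 32-134D was called (0.60, FDR = 4.71e-18) and that in hypoxia was under the fold threshold (-0.57). MT-CO2 had log2 fold changes of -0.23 (FDR = 0.00945) and 0.16 (FDR = 0.0709). Hence in the main fit 1 of 3 was called lower in hypoxia and 1 of 3 higher with 32-134D, beside 20.3% and 16.2% of all genes.

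**Figure D4:**
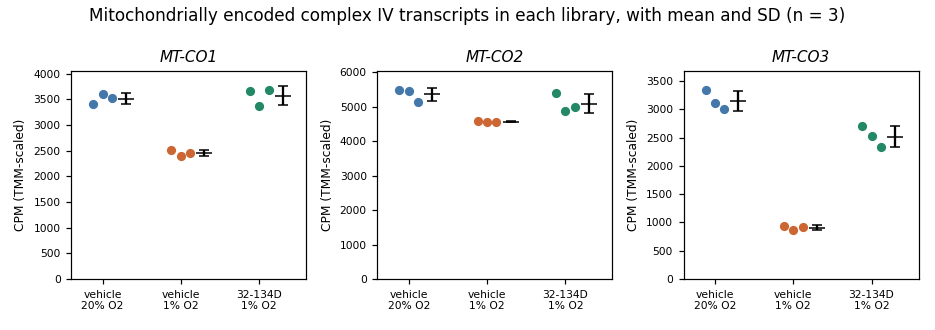
CPM (TMM-scaled, linear axes from 0) of the 3 mitochondrially encoded complex IV transcripts in each library, with a bar for the mean and SD (n = 3). All hypoxic vehicle libraries lie below all others, and MT-CO3 is the most changed, at 860 to 946 CPM against at least 2326 elsewhere.

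Relatives of the members, and COX7A2L, were also followed. C15orf48, a further paralog of NDUFA4, rose from 0.85 ± 0.46 to 2.71 ± 0.57 CPM at 1% O2 (log2 fold change 1.44 ± 0.30, FDR = 0.000836) and fell by 1.41 with 32-134D (FDR = 0.000542). COX7A2L, a relative of subunit 7A that helps join complexes III and IV into supercomplexes, rose by 1.37 ± 0.096 (FDR = 1.72e-08) and changed by -0.98 with 32-134D (FDR = 7.35e-07). HIGD2A and LONP2, the relatives of HIGD1A and LONP1, were not called, and HIGD1B, HIGD1C and HIGD2B had 0 to 8 counts in all. Of these 7 genes 4 were tested. The 2 called higher in hypoxia and lower with 32-134D were C15orf48 and COX7A2L, where 19.5% and 13.7% of all genes were so called.

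Of 25 complex IV assembly factors, 7 were called higher and 2 lower at 1% O2, and 1 higher and 5 lower with 32-134D, with median log2 fold changes of 0.28 and -0.22. Of all genes tested, 19.5% were called higher and 20.3% lower in hypoxia, and 16.2% higher and 13.7% lower with the compound, with medians of 0.0010 and -0.012, and these shares also stand beside the counts of the next lists. COA8, an assembly factor, rose by 1.59 ± 0.14 (FDR = 1.67e-07), and COX18, which inserts subunit 2 into the membrane, fell by 0.76 on the log2 scale (SE 0.14, FDR = 0.000221). With the compound they changed by -1.13 and 0.75. Of the 17 iron-sulfur assembly genes tested beside ISCU, 7 were called higher and 2 lower in hypoxia, with a median of 0.50, and 1 higher and 5 lower with 32-134D. ISCA1, a late-acting assembly protein, rose by 1.66 ± 0.12 (FDR = 1.88e-08) and was still higher than in normoxia with 32-134D (log2 fold change 0.70, FDR = 0.00155), while NUBPL, which serves complex I, fell by 0.96 on the log2 scale (FDR = 3.65e-05). The call of ISCA1 against normoxia was lost without the smallest library and replicate 3 of 32-134D.

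Among 14 other mitochondrial proteases and peptidases, 4 were called higher and 2 lower in hypoxia, and 2 higher and 3 lower with 32-134D. CLPP, a matrix protease like LONP1, rose by 1.12 ± 0.076 (FDR = 1.38e-08), and SPG7, a subunit of the inner-membrane m-AAA protease, fell by 1.08 on the log2 scale (FDR = 8.44e-09). With 32-134D these changed by -0.77 and 0.75. Over the 5 nuclear lists together, 22 genes were called higher in hypoxia and 17 lower with 32-134D, and these counts were 12 and 7 with total library size, where 13.6% of all genes were called higher in hypoxia and 8.15% lower with the compound. Without replicate 3 of hypoxic vehicle the second was 11.

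**Figure D5:**
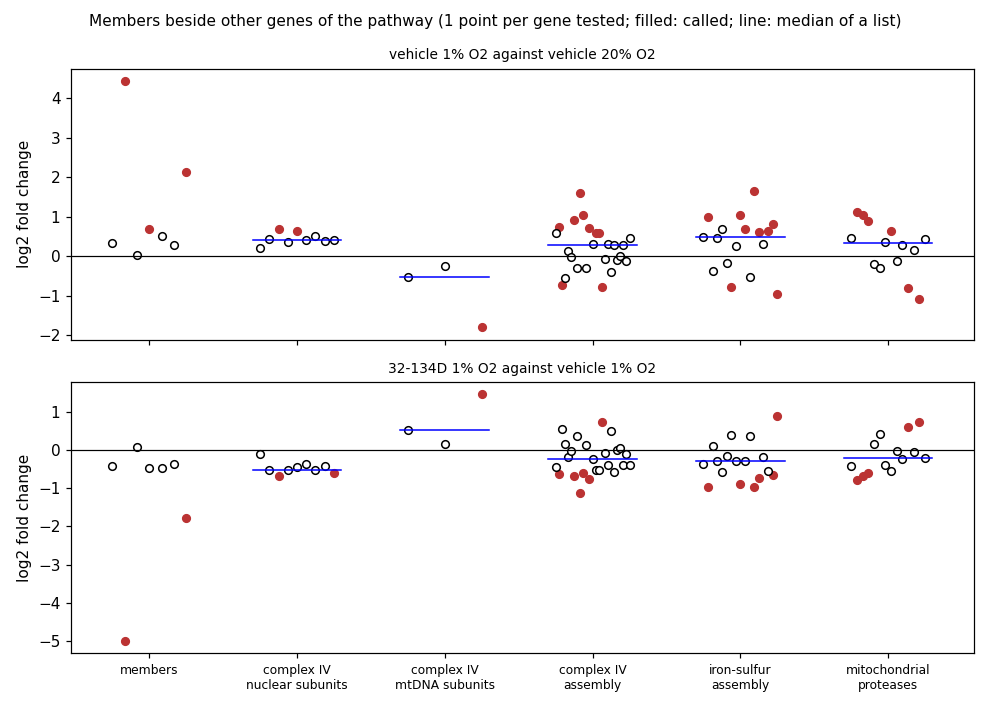
Log2 fold changes (vertical axes) of the members and of 5 other gene lists, 1 point per gene tested, filled where called, with a blue line at the median of each list other than the members. The nuclear subunits of complex IV lie above 0 in hypoxia and below it with 32-134D, the assembly and protease lists spread on both sides, the mitochondrially encoded subunits lie below 0 in hypoxia and above it with 32-134D, and COX4I2 and NDUFA4L2 are the most changed members.

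Factors known to act at the COX4I2 promoter were expressed throughout. RBPJ, a DNA-binding protein of the Notch pathway, was at 98.0, 87.3 and 89.8 CPM in normoxic vehicle and 174.9, 175.5 and 179.2 CPM in hypoxic vehicle. It rose (log2 fold change 0.94 ± 0.068, FDR = 2.50e-08) and fell with 32-134D to 106.2, 110.5 and 108.2 CPM (-0.70 ± 0.067, FDR = 8.26e-07), a call that was lost with the upper quartile (-0.58) and with total library size (-0.52). CHCHD2, a coactivator at that promoter, and CXXC5, an inhibitor there, had log2 fold changes of 0.54 and 0.52 in hypoxia and -0.47 and -0.51 with 32-134D, all past the FDR and under the fold threshold.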

How the data were processed

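The authors trimmed reads with Bbduk, aligned them to GRCh38 with STAR (Ensembl annotation) and counted them per gene with featureCounts; versions and the strand setting are not given in the sources used here. The deposited values were raw counts per gene, and they were used as deposited. Vehicle was DMSO, and the labels describe the replicates as biological.

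Genes with a sum of 10 or more counts (22672 of 60683) were fitted with edgeR 4.0.16 (TMM scaling, quasi-likelihood test, R 4.3.3) in 1 model of 3 groups, and calls required an FDR (Benjamini-Hochberg) under 0.05 together with a change over 1.5-fold. Standard errors were taken from the F statistic. Totals of 6013980 to 40549699 counts set the precision, and intervals of count ratios are exact and cover counting error only. Ratios within libraries used (count + 0.5) per kb of GENCODE 29 exon union and a two-sided exact permutation test. The script was tested on simulated data. Alternatives were DESeq2 1.42.0, other scalings, filters and thresholds, thinned counts, a replicate block and each library left out. Members and lists were chosen with earlier results of these data known. Genes named from the lists were the called gene with the largest rise or fall at a mean normalized count of at least 100. All relatives of the members and COX7A2L were also named, with the mitochondrially encoded subunits, promoter factors, host transcript and marker genes.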

Additional observations from a re-analysis of the deposited data

How the results depend on the processing

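NDUFA4L2 kept its direction and its calls in hypoxia and with 32-134D under every alternative. COX4I2 did so wherever it was tested, which adds no support, as it was tested only through its counts in hypoxic vehicle. Single libraries left out did not alter the count of members called, which includes COX4I2. COX4I2 was not tested where each library had to reach 10 counts or with filterByExpr, which left 1 member called lower with 32-134D. With no fold threshold 6 members, COX4I2 among them, were higher in hypoxia and 6 lower with the compound, beside 27.9% and 25.5% of all genes. The ISCU rise was 0.57 after thinning to the smallest library, under the fold threshold as with the scalings above.

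Called genes of the 5 nuclear lists in hypoxia (22 higher, 6 lower) became 12 higher with total library size or the upper quartile, 13 where each library had to reach 10 counts, 43 higher and 12 lower with no fold threshold, and 8 and 1 above 2-fold. With 32-134D (17 lower, 4 higher) they became 9 lower with the upper quartile, 7 lower and 8 higher with total library size, 10 lower where each library had to reach 10 counts, 40 lower and 9 higher with no fold threshold, 2 and 0 above 2-fold, and 7 higher after thinning, and single libraries left out gave 11 to 19 lower. Against normoxia (1 higher) they were 9 higher and 2 lower with no fold threshold, 0 above 2-fold, 1 to 2 with single libraries left out, and 0 without the smallest library and replicate 3 of 32-134D, an alternative chosen after seeing the data. Causes were not tested, beyond the fewer genes or lower thresholds that the settings themselves bring. Total library size lowered the share of higher calls among all genes from 49.0% to 34.5% in hypoxia and raised it from 54.2% to 72.0% with 32-134D, and the upper quartile put the median of all genes at -0.19 and 0.11.

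Signs turned only for estimates that were not called. HIGD1A in hypoxia was -0.0014 with DESeq2, -0.0025 with RLE, -0.15 with the upper quartile, -0.17 with total library size, -0.065 where each library had to reach 10 counts, -0.023 with filterByExpr, -0.23 after thinning, and -0.079 to 0.15 with single libraries left out. HIGD2A in hypoxia was -0.0016 with total library size, and LONP2 with 32-134D was 0.0061 with the upper quartile and 0.071 with total library size. Against normoxia, LONP1 was -0.016 with the upper quartile and -0.038 without the smallest library and replicate 3 of 32-134D, and HIGD1A was -0.0071 after thinning. With single libraries left out, the estimates there ran from -0.13 to 0.047 for COX4I1, from -2.25 to 1.80 for COX4I2, from -0.12 to 0.037 for NDUFA4 and from -0.046 to 0.12 for LONP1.

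The difference in the COX4I2 ratio with 32-134D was -2.40 with a prior count of 2 and -2.53 after thinning, and in hypoxia it was 1.46 with a prior count of 2. The NDUFA4L2 ratio against normoxia was higher by 0.18 after thinning. Same-numbered replicates did not deviate together (r from -0.21 to 0.089, 0 of 9 pairs over 0.1), so the numbers were not taken as pairs. With the replicate number as a block, 3 members were called higher in hypoxia and 2 lower with 32-134D, COX4I2 among both. Of all genes, 18.9% and 13.3% were so called, and against normoxia 0 members were called. NDUFA4L2 changed by 2.15 in hypoxia and -1.77 with 32-134D, and no member's call changed. Depth limited COX4I2, which had 0 or 1 count in every library outside hypoxic vehicle.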

Other observations

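The genes whose levels followed NDUFA4L2 most closely over the 9 libraries were LYSMD1 (Pearson r = 0.9986 of log2 CPM), LNPK (0.9969), OSBPL2 (0.9959), XAB2 (0.9948) and GPANK1 (0.9942), given as a description because the libraries share 3 conditions. Of 11967 genes compared, 2080 had an r above 0.95 with NDUFA4L2. For COX4I2 the closest were LGALS1 (0.9925), PSMC1 (0.9895), CPNE1 (0.9894), DPCD (0.989) and ID2 (0.9882), and 406 genes were above 0.95. By Spearman's rho, 0 of the 5 genes of each list were among the closest 5. With a prior count of 0.5 in place of 2, all 5 were for NDUFA4L2 and 0 of 5 for COX4I2.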
